A study of Mus musculus with 44 samples.

Results

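Interleukin 4 (IL-4) cultures kept for 72 h were compared with IL-4 cultures kept for 24 h, which took in 7 of the 44 libraries of the series. These were the columns of the count table named for IL-4 at 72 h (3 libraries, numbered 2, 3 and 4) and for IL-4 at 24 h (4 libraries, numbered 1 to 4). All held messenger RNA of macrophages of C57BL/6 mice, drawn to the peritoneum with thioglycolate, taken 4 days afterwards and used as the cells that adhered in DMEM with 10% serum and antibiotics. The cells of several mice were combined into 1 isolate before culture, so that replicates are cultures of that isolate and p-values measure only the spread between cultures. IL-4 was given at 10 ng/mL. Control cultures, with nothing added, at 72 h (3 libraries) and 24 h (4 libraries) served to show how far a change with time was also seen without IL-4, and 4 IL-4 libraries at 8 h give an earlier time point in 1 plot. The remaining libraries, of other stimuli or times, entered the fit only through the shared estimate of the spread.

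IL-4 binds a receptor of the alpha chain Il4ra with Il2rg or Il13ra1, whose Jak kinases phosphorylate the transcription factor Stat6. In mouse macrophages this turns on the genes of alternative activation, among them arginase, chitinase-like proteins, the mannose receptor and a set of chemokines, and it can lead to fusion into giant cells. Other circuits act in the same cells over days in culture: Atf4, translated when amino acids run short, turns on genes of amino acid synthesis and import, and SREBP2 turns on cholesterol synthesis when membrane sterol falls.

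Total gene counts were 26466287, 13748609 and 15868289 in IL-4 72 h replicates 2, 3 and 4, against 908458, 25094449, 9742555 and 7669094 in IL-4 24 h replicates 1 to 4. They were 1788577 to 4473580 in the control libraries at 72 h and 3542761 to 11523640 at 24 h. A pair of the IL-4 libraries stood apart. Replicate 1 at 24 h, the shallowest, correlated with the other libraries of its group at 0.907 to 0.913 (Pearson's r of log2 levels across genes). The others reached 0.988 with each other. In replicate 1, 1438 genes were at least 2-fold above and 3413 at least 2-fold below all other libraries of the 24 h group. Replicate 3 at 72 h correlated with its group at 0.976 to 0.981, where the other pair had 0.991. In it, 304 and 369 genes lay that far above and below the others of the 72 h group. For part of the results that lean on either library, values with and without it are given, as alternatives chosen after seeing the data. Other genes are given with all libraries only, as are the differences of single genes from control.

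In replicate 3 at 72 h, several genes that IL-4 is known to raise were low while some inflammatory genes were high. The genes shown for this were chosen after their values were seen, apart from Retnla, Ear2 and Cxcl3, and have no test of their own here. Retnla, the secreted resistin-like protein of alternative activation, had 854, 13.2 and 778 CPM (a gene's count per M of the library's normalised total, M being the mega prefix) in IL-4 72 h replicates 2, 3 and 4, against 1008, 690.3, 550.4 and 506 CPM in IL-4 24 h replicates 1 to 4, the order in which values are given throughout. Mgl2, a galactose-binding lectin receptor, had 128, 5.31 and 109 CPM at 72 h, against 44.7, 38.2, 30.5 and 33.8 CPM at 24 h. Mmp8, the neutrophil collagenase, had 5.003, 83.5 and 5.61 CPM at 72 h, against 34.9, 32.3, 28.4 and 29.6 CPM at 24 h. In all 3 genes replicates 2 and 4 at 72 h lay together, and replicate 3 lay beyond every 24 h library, below them for Retnla and Mgl2 and above them for Mmp8. Mmp8 did not pass with replicate 3 (log2 0.01 ± 0.44, SE, adjusted p = 0.996) and fell without it (log2 -2.54, adjusted p = 1.64e-11). The chemokine Cxcl3 had 1.25, 69.3 and 2.87 CPM at 72 h, against 13.1, 1.31, 2.92 and 2.25 CPM at 24 h, and was called higher (log2 3.23 ± 0.79, SE, adjusted p = 0.00398) with replicate 3 but not without it (log2 -0.36, adjusted p = 0.821). In the control libraries at 72 h Retnla had 2.76 to 12.8 CPM, so that replicate 3 lay close to them in this gene. Arg1 and Chil3, other genes that IL-4 is known to raise, had 2447 and 31606 CPM in replicate 3, against 89.9 to 286 and 84.4 to 328 CPM in control at 72 h. Not all genes of these kinds went the same way. Replicate 3 had the most Arg1, Tgm2 and Irf4 of the 72 h libraries, and in it the inflammatory genes Nos2, Il1b and Il6 did not lie above all 24 h libraries (values below). Whether this culture held IL-4 throughout cannot be told from the counts, which bears on every mean and test that includes it.

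**Figure D1:**
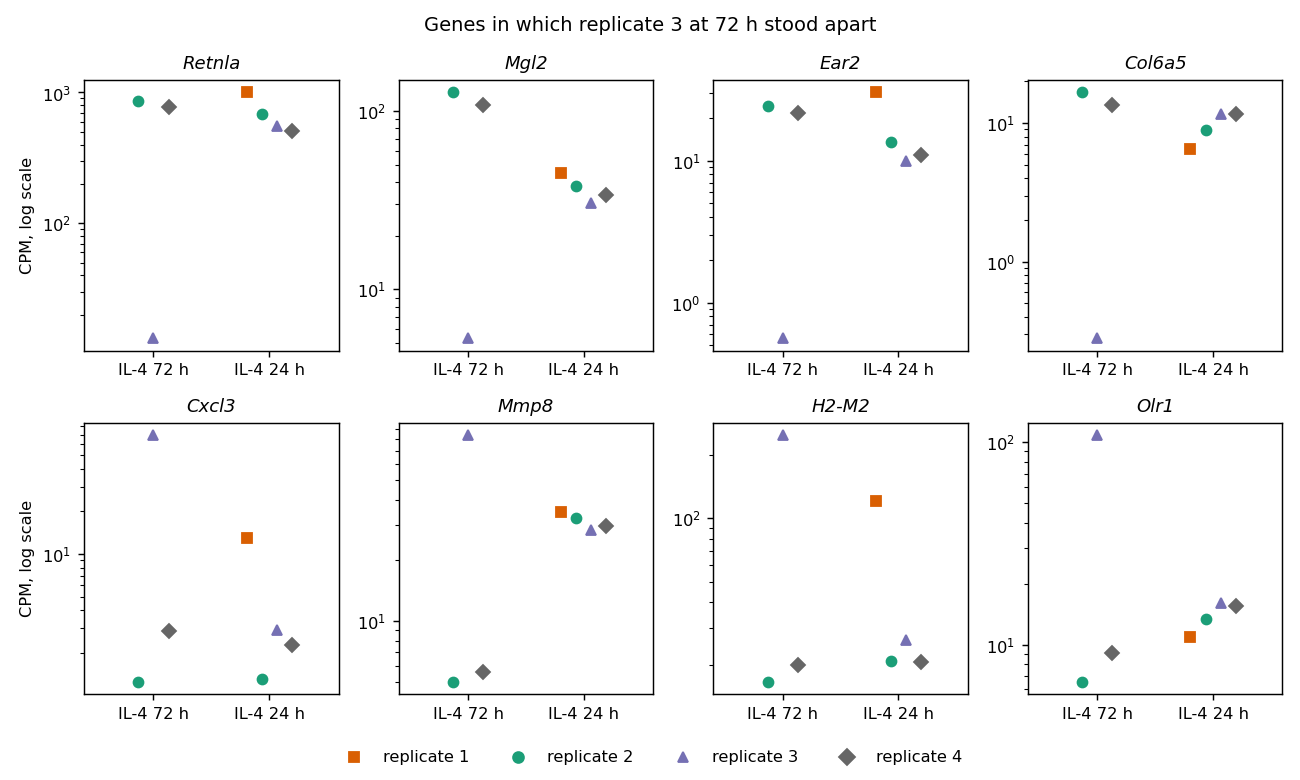
Levels of 8 genes in IL-4 libraries at 72 h (left in each panel) and 24 h (right), in CPM on a log scale, 1 point per library. In the upper row replicate 3 at 72 h lies below every other library, at 13.2 CPM for Retnla, and in the lower row above every other, at 69.3 CPM for Cxcl3.

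All 18 macrophage lineage genes listed were detected and tested, and their summed level was 13493 to 19310 CPM in IL-4 libraries at 72 h and 13240 to 13995 CPM at 24 h. Adgre1, the F4/80 antigen, had 201, 342 and 171 CPM at 72 h, against 127, 196, 191 and 190.1 CPM at 24 h, and did not pass the test (log2 0.42 ± 0.19, SE, adjusted p = 0.159). Of the 18 genes 1 rose and 5 fell with IL-4 at an adjusted p under 0.05 from edgeR, beside 6.97% and 5.52% of all genes, and the counts were 1 and 5 without both libraries that stood apart. Cd14 rose, and Csf1r, Mertk, Spi1, a transcription factor of myeloid cells, Ccr2 and Aif1, an actin-binding protein also called Iba1, fell (log2 -2.25 for Aif1). The change, on the signed log2 scale, was smaller with IL-4 than in control for 7 of them and larger for 0. Among all genes 7.50% had a smaller and 8.46% a larger change.

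Of 14537 genes tested, 1013 rose (6.97%) and 802 fell (5.52%) between 24 h and 72 h with IL-4, at an adjusted p under 0.05 from edgeR's quasi-likelihood test with Benjamini-Hochberg adjustment. Changes of at least 2-fold made up 284 of the rises and 322 of the falls. At an unadjusted p under 0.05 there were 3472 genes. In 3526 genes (24.3%) the 72 h and 24 h libraries did not overlap. Without 24 h replicate 1 and 72 h replicate 3 together, 482 rose and 555 fell, and 909 of the 1815 genes called with all libraries were called in the same direction. The median log2 change of all genes tested was 0.05.

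Of the 42 gene lists, the largest share of members called was in the amino acid branch of the Atf4 stress response, in which 16 of 18 members rose and 0 fell, against 6.97% of all genes that rose. Its median log2 change was 1.61, beside 0.05 for all genes, and the count was 17 of 18 without both libraries that stood apart. Asns, which makes asparagine, had 201, 193 and 199.7 CPM at 72 h, against 50.1, 54.8, 47.5 and 51.7 CPM at 24 h. The groups were far apart and tight in themselves, including the library that stood apart in each (log2 1.95 ± 0.13, SE, adjusted p = 1.18e-13). Chac1, which degrades glutathione, had 35.8, 31.7 and 36.3 CPM at 72 h, against 7.63, 4.56, 6.60 and 4.62 CPM at 24 h (log2 2.67 ± 0.23, adjusted p = 8.23e-11). Cth, which makes cysteine from cystathionine, had 19.6, 11.7 and 15.4 CPM at 72 h, against 0, 1.53, 1.32 and 0.593 CPM at 24 h (log2 3.74 ± 0.40, adjusted p = 9.71e-09). In both the lowest 72 h library was several times the highest 24 h library.

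Enzymes of serine synthesis and of the folate steps that follow it were among the risers. Psat1, an aminotransferase of serine synthesis, had 186, 188 and 184 CPM at 72 h, against 64.3, 85.2, 72.9 and 75.2 CPM at 24 h (log2 1.31 ± 0.13, adjusted p = 1.07e-09), and Phgdh, the enzyme before it in the pathway, rose by log2 1.99 ± 0.23 (adjusted p = 6.16e-08). The mitochondrial folate enzymes Shmt2, Mthfd2 and Aldh1l2 rose by log2 1.09, 0.90 and 1.69. Slc7a11, the cystine importer, had 78.99, 178 and 72.4 CPM at 72 h, against 33.8, 42.5, 40.3 and 41.4 CPM at 24 h, with replicate 3 highest and no overlap of the groups (log2 1.45 ± 0.23, adjusted p = 2.25e-05; 0.92 without it, adjusted p = 0.0044). Its partner chain Slc3a2 and the leucine importer Slc7a5 rose by log2 0.81 and 1.33. Sesn2, a sestrin that restrains mTORC1 when leucine is short, had 67.6, 69.1 and 59.9 CPM at 72 h, against 23.97, 21.6, 19.8 and 19.3 CPM at 24 h (log2 1.66 ± 0.16, adjusted p = 5.37e-10).

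The amino acid transporters Slc7a3, for cationic amino acids, and Slc6a9, for glycine, were not on that list but were among the 10 largest rises of the comparison. Slc7a3 had 4.55, 2.17 and 4.20 CPM at 72 h, against 0, 0.336, 0.0942 and 0.356 CPM at 24 h (log2 3.74 ± 0.67, adjusted p = 0.000114). Slc6a9, whose exons overlap those of genes on the opposite strand, had 6.06, 6.08 and 5.67 CPM at 72 h, against 0, 0.597, 0.660 and 0.474 CPM at 24 h (log2 3.38 ± 0.43, adjusted p = 4.32e-07). The mRNA of Atf4 itself, which is regulated mainly in translation, had 444, 489.7 and 440.3 CPM at 72 h, against 549, 350.2, 351 and 367 CPM at 24 h, and did not pass the test (log2 0.19 ± 0.16, adjusted p = 0.524). Ddit3, which codes for the stress factor CHOP, had 122, 97.6 and 119 CPM at 72 h, against 159, 49.03, 48.6 and 63.1 CPM at 24 h. It did not pass with all libraries (log2 0.62 ± 0.27, adjusted p = 0.140) and rose without 24 h replicate 1, the highest of all (log2 1.06, adjusted p = 0.000883). Atf4 and Ddit3 are shown although they lie outside the naming rule.

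**Figure D2:**
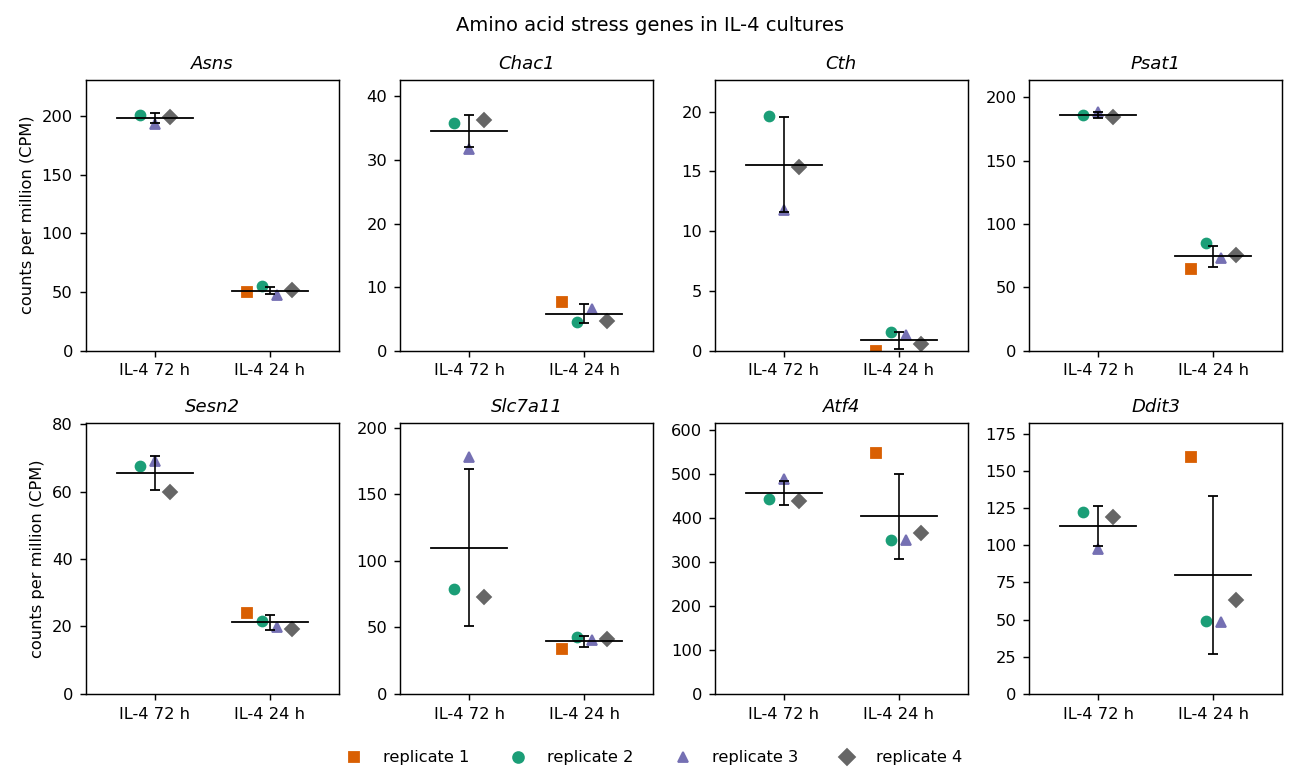
Levels of 8 genes of the Atf4 amino acid stress list in IL-4 libraries at 72 h (left) and 24 h (right), in CPM, 1 point per library, with mean and SD. For Asns the 72 h libraries lie at 193 to 201 CPM, above the 24 h libraries at 47.5 to 54.8 CPM, while Atf4 and Ddit3 overlap.

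In control cultures 3 members of the list rose and 2 fell (8.24% and 9.71% of all genes did), with a median log2 change of 0.25. The change with IL-4 exceeded that in control for 13 of the 18 members and was smaller for 0, where 8.46% of all genes had a larger and 7.50% a smaller change (larger and smaller on the signed log2 scale, here and for the differences that follow). Asns changed by log2 1.95 with IL-4 and by -0.27 in control, a difference of 2.22 ± 0.20 (SE, adjusted p = 2.51e-10). For Chac1 the difference was 2.00 ± 0.36 (adjusted p = 0.000171).

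Atf4 binds with C/EBP-family partners at sites whose core is written TGATGNAA. These letters, searched on both strands, were found in the promoters of 6 of the 15 list genes with a promoter in the RefSeq table (Asns, Chac1, Nupr1, Slc7a11, Trib3 and Vldlr), or 35.3% of their 17 promoters, against 3.97% of all 32851 promoters of the same length. Each promoter spans 250 bases before to 50 after the annotated start (RefSeq, GRCm38.p6). The promoters of Asns (chr6:7693160-7693459, minus strand), Chac1 (chr2:119350992-119351291, plus strand) and Slc7a11 (chr3:50443564-50443863, minus strand) are shown 5′ to 3′ because these genes are named above, with the matches in capitals. The matches start 23 bases before the start in Asns, 193 before it in Chac1 (as the reverse complement), and 66 and 47 before it in Slc7a11 (the nearer as the reverse complement).
Asns: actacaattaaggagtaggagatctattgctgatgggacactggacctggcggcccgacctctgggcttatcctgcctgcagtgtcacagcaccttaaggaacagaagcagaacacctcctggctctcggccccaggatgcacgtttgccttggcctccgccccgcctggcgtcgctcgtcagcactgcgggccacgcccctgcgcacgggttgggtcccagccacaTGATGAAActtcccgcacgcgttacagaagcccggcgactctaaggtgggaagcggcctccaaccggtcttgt
Chac1: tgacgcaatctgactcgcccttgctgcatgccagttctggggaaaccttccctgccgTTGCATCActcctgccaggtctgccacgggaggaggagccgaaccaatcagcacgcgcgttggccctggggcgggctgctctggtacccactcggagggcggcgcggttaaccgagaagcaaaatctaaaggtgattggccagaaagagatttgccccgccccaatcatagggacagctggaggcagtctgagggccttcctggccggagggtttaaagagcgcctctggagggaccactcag
Slc7a11: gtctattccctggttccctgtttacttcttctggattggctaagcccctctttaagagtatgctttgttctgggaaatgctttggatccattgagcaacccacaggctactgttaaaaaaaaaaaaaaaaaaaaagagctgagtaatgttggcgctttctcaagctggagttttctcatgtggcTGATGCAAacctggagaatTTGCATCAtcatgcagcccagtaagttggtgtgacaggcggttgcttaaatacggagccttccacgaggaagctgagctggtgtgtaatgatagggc
The list was written around the Atf4 response, so a share above that of all promoters can come from its choice and is no test. A match describes the letters only, and no binding was measured.

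Genes that IL-4 is known to induce did not move together between 24 h and 72 h. Of 18 IL-4 effectors (secreted proteins and enzymes) tested, 2 rose and 6 fell, where 6.97% of all genes rose and 5.52% fell, and the median log2 change was -0.12, or 0.12 without both libraries that stood apart. Tgm2, the transglutaminase used as a marker of alternative activation in mouse and human, had 443, 852 and 429 CPM at 72 h, against 193, 122, 137 and 147 CPM at 24 h, with no overlap (log2 1.96 ± 0.18, SE, adjusted p = 2.18e-10). Ccl6, a chemokine, rose by log2 0.51 ± 0.15 (adjusted p = 0.0187). Arg1, which splits arginine into ornithine and urea, had 1864, 2447 and 1721 CPM at 72 h, against 1626, 1475, 1503 and 1398 CPM at 24 h. The 72 h libraries all lay above the 24 h libraries, but the change did not pass the test (log2 0.42 ± 0.32, adjusted p = 0.469).

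The chitinase-like Chil3 (Ym1) had 46682, 31606 and 41021 CPM at 72 h, against 15707, 14422, 12448 and 11794 CPM at 24 h. The groups did not overlap, and the change was just above the threshold (log2 1.55 ± 0.55, adjusted p = 0.0557). Its paralog Chil4 (Ym2), with which it may share reads, had 37.03, 19.8 and 29.05 CPM at 72 h, against 8.71, 13.7, 14.04 and 14.2 CPM at 24 h (log2 1.12 ± 0.41, adjusted p = 0.0664). In edgeR fits of the compared groups alone, Chil3 and Chil4 passed (adjusted p = 0.00787 and 0.0338). They also passed without the filter on low counts (adjusted p = 1.37e-08 and 0.00784) and with the replicate block described below. Retnla did not pass the test (log2 -0.32 ± 0.60, adjusted p = 0.828), and its sign turned without 72 h replicate 3 (log2 0.26, adjusted p = 0.837).

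The 3 chemokines most used as markers of alternative activation fell. Ccl22, a ligand of the receptor Ccr4, had 1.59, 2.17 and 1.53 CPM at 72 h, against 6.54, 11.6, 15.1 and 13.3 CPM at 24 h (log2 -2.82 ± 0.35, SE, adjusted p = 1.94e-07). Ccl17, the other Ccr4 ligand, had 0.493, 0.349 and 0.255 CPM at 72 h, against 6.54, 2.35, 1.70 and 3.44 CPM at 24 h (log2 -2.96 ± 0.60, adjusted p = 0.000861). Ccl24, an eosinophil attractant, had 3.52, 0.909 and 3.25 CPM at 72 h, against 23.97, 8.21, 7.54 and 7.47 CPM at 24 h (log2 -2.03 ± 0.51, adjusted p = 0.00597). All 3 had groups that did not overlap, and Ccl24 lost its call without 72 h replicate 3 (log2 -1.63, adjusted p = 0.0605). F13a1, the coagulation factor XIII subunit, and Ptgs1, cyclooxygenase 1, fell by log2 -1.67 and -0.70 (adjusted p = 0.0004 and 0.000409), and Il1rn, the antagonist of the interleukin 1 receptor, by -0.58 (adjusted p = 0.0210). Il1rn was not called without 72 h replicate 3 (log2 -0.55, adjusted p = 0.0895). Ccl17 had no read in any control library at either time. Ccl22 had 0 to 0.356 CPM in control at 72 h, against 0.473 to 2.22 CPM in control at 24 h, a fitted change like that with IL-4 (log2 -2.90, adjusted p = 0.0661, and a difference of 0.08 ± 0.61, adjusted p = 0.956). For Ccl24 the difference was log2 -2.92 ± 1.05 (adjusted p = 0.0530).

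Stat6 sites are written as TTC and GAA separated by 4 bases of any kind, which reads alike on both strands. These letters lay in promoters of 3 of the 12 effector genes with a promoter in the RefSeq table (Ccl17, Il1rn and Retnla), or 26.7% of their 15 promoters, against 6.95% of all promoters. The promoter of Ccl17 (chr8:94810203-94810502, plus strand, GRCm38.p6) is shown as that of the chemokine with the largest fall, with the match, which begins 154 bases before the start, in capitals.
Ccl17: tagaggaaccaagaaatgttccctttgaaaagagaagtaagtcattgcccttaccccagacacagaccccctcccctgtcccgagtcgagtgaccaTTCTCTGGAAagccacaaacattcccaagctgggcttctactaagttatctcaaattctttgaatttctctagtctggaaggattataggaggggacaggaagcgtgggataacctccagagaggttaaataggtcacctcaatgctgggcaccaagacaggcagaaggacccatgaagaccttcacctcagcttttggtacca
As above, the list was chosen for its link to IL-4, and the match describes letters, not a site in use.

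Of 22 genes of the IL-4 receptor pathway, 2 rose and 3 fell, where 6.97% of all genes rose and 5.52% fell, and the counts were 0 and 4 without both libraries that stood apart. The receptor chain Il13ra1 had 66.8, 72.1 and 63.4 CPM at 72 h, against 37.04, 44.7, 49.5 and 40.4 CPM at 24 h (log2 0.63 ± 0.16, adjusted p = 0.00486), but was not called without both libraries (log2 0.49, adjusted p = 0.111). Its partner Il4ra had 42.5, 54.1 and 40.1 CPM at 72 h, against 55.6, 31.5, 35.6 and 42.6 CPM at 24 h, and Stat6 had 118, 127 and 115 CPM, against 82.8, 100.4, 123 and 121 CPM. Both overlapped and neither passed the test (log2 0.21 ± 0.16 and 0.15 ± 0.19, adjusted p = 0.496 and 0.711). Irf4, a transcription factor downstream of Stat6, had 19.7, 26.8 and 19.1 CPM at 72 h, against 30.5, 51.5, 54.4 and 54.7 CPM at 24 h, with no overlap (log2 -1.18 ± 0.26, adjusted p = 0.00148). Batf3, which pairs with Irf factors on DNA, had 13.4, 11.95 and 12.7 CPM at 72 h, against 89.3, 33.7, 34.7 and 30.7 CPM at 24 h, with replicate 1 the highest at 24 h (log2 -1.73 ± 0.29, adjusted p = 5.48e-05). Ptpn6, the phosphatase SHP-1, fell by log2 -0.75 ± 0.17 (adjusted p = 0.00190). The inhibitors Cish, which binds cytokine receptors, and Socs1, which blocks Jak kinases, did not pass the test (log2 -0.57 ± 0.31 and -0.65 ± 0.33, adjusted p = 0.261 and 0.226).

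Of 17 surface receptors associated with IL-4, 3 rose and 1 fell, where 6.97% of all genes rose and 5.52% fell, and 1 rose without 24 h replicate 1. The median log2 change was -0.07, or 0.17 without both libraries that stood apart. Cd36, which takes up oxidised lipoprotein and fatty acids, had 13835, 10299.8 and 12231 CPM at 72 h, against 4459, 8482, 7066 and 6377 CPM at 24 h, with no overlap (log2 0.88 ± 0.15, SE, adjusted p = 5.2e-05). Mrc1, the mannose receptor, had 1219.8, 521 and 1143 CPM at 72 h, against 317, 606, 592 and 602 CPM at 24 h. Replicates 2 and 4 at 72 h were the highest, but replicate 3 lay among the 24 h libraries (log2 0.86 ± 0.24, adjusted p = 0.0128), and the call was lost without 24 h replicate 1 (log2 0.66, adjusted p = 0.0744) or without 72 h replicate 2 (log2 0.65, adjusted p = 0.129) or 4 (log2 0.72, adjusted p = 0.092). Msr1, the class A scavenger receptor, rose by log2 0.47 ± 0.14 (adjusted p = 0.0204), without 72 h replicate 3 by 0.31 (adjusted p = 0.247). Clec4a1, a lectin receptor of the dendritic cell immunoreceptor family, had 14.2, 10.9 and 12.8 CPM at 72 h, against 21.8, 33.6, 30.7 and 29.1 CPM at 24 h (log2 -1.24 ± 0.20, adjusted p = 2.68e-05). Pdcd1lg2, the PD-1 ligand PD-L2, had 53.9, 15.5 and 56.4 CPM at 72 h, against 49.02, 45.5, 47.96 and 49.1 CPM at 24 h, and did not pass the test (log2 -0.18 ± 0.33, adjusted p = 0.814). Mgl2 rose without 72 h replicate 3 (log2 1.72, adjusted p = 1.91e-05) and did not pass with it (log2 1.17 ± 0.43, adjusted p = 0.0672).

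**Figure D3:**
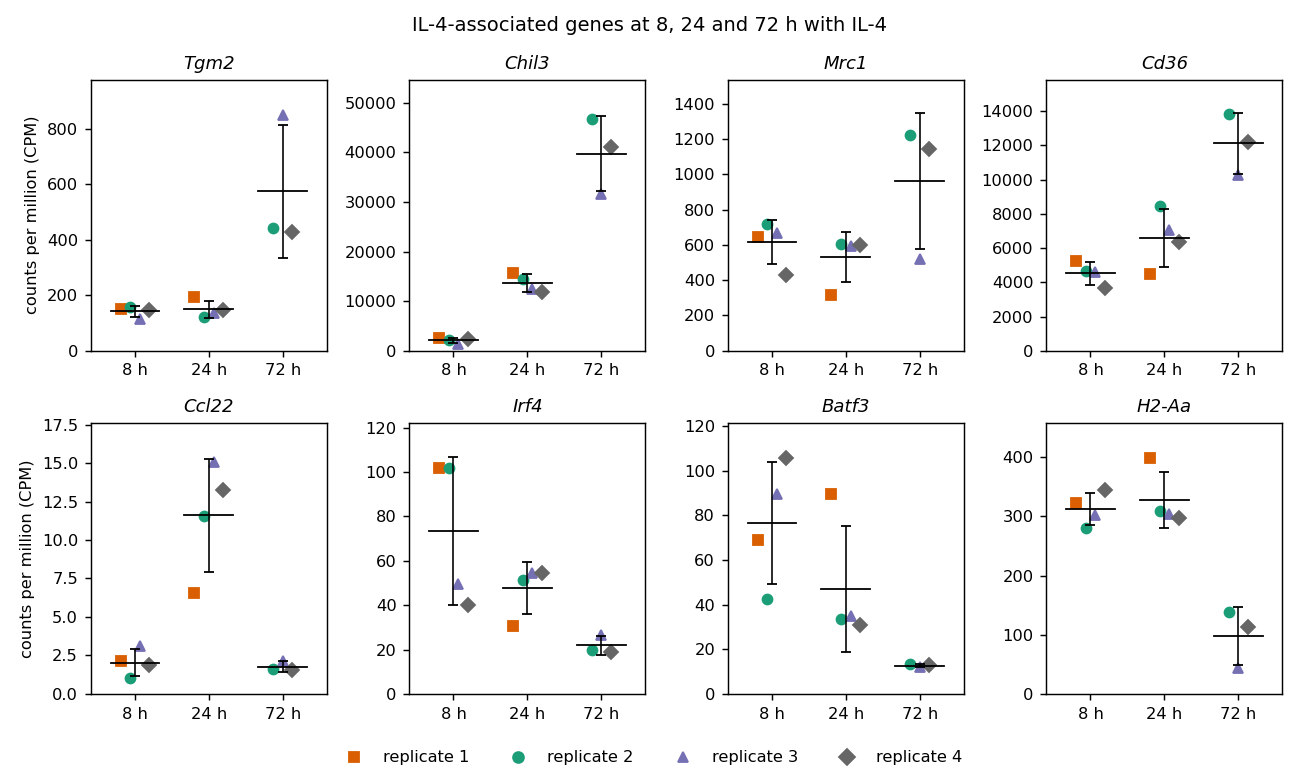
Levels of 8 genes in IL-4 cultures at 8, 24 and 72 h, in CPM, 1 point per library (4, 4 and 3 libraries), with mean and SD. Mean Chil3 climbs at each step, to 2138 ± 486, 13593 ± 1799 and 39769.6 ± 7616 CPM at 8, 24 and 72 h, whereas mean Ccl22 is highest at 24 h, with 2.04 ± 0.862, 11.6 ± 3.68 and 1.76 ± 0.352 CPM.

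Genes of antigen presentation on MHC class II fell, 8 of the 11 tested against 5.52% of all genes, with 0 that rose and a median log2 change of -1.37. The count was 8 of 11 without either or both of the libraries that stood apart. H2-Aa, the alpha chain of the I-A molecule, had 138, 43.2 and 113 CPM at 72 h, against 399, 310.0, 304 and 297 CPM at 24 h (log2 -1.73 ± 0.21, SE, adjusted p = 1.26e-07). H2-Eb1, the beta chain of I-E, had 47.1, 22.4 and 47.7 CPM at 72 h, against 210.2, 128, 129 and 124 CPM at 24 h (log2 -1.89 ± 0.20, adjusted p = 7.89e-09). In both, replicate 3 was the lowest at 72 h and replicate 1 the highest at 24 h, and the groups were separate with either left aside. H2-DMa and H2-DMb1, the chains of the peptide exchanger H2-DM, fell by log2 -1.96 and -1.39 (adjusted p = 3.46e-08 and 1.23e-07). The exons of H2-DMa overlap those of Brd2 on the other strand. Ciita, the coactivator that class II genes depend on, named outside the rule, had 3.45, 1.54 and 2.93 CPM at 72 h, against 10.9, 10.7, 12.9 and 14.1 CPM at 24 h (log2 -2.18 ± 0.34, adjusted p = 1.5e-05). In control cultures 1 of the 11 members rose and 1 fell, where 8.24% of all genes rose and 9.71% fell. The change was smaller with IL-4 than in control for 7, where 7.50% of all genes had a smaller change. H2-Aa had a difference of log2 -1.49 ± 0.28 (adjusted p = 0.000373) and Ciita one of -2.17 ± 0.59 (adjusted p = 0.0104).

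Class II genes are also those of dendritic and B cells. Of 13 dendritic cell markers tested, 1 rose and 3 fell, where 6.97% of all genes rose and 5.52% fell. The summed level of these markers was 426 to 670 CPM at 72 h and 780 to 959 CPM at 24 h, while Cd24a rose. Without 72 h replicate 3, 1 of the dendritic cell markers fell. Of 8 B cell markers tested 2 fell, and their summed level was 6.43 to 9.29 CPM at 72 h and 11.1 to 15.7 CPM at 24 h, but 0 fell without 72 h replicate 3 or without 24 h replicate 4. The part of such cells in the fall of class II genes was not tested, and in bulk RNA fewer cells of a type and less RNA per cell cannot be told apart.

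Of 18 genes of cell fusion and of the osteoclast-like state, 3 rose and 5 fell, where 6.97% of all genes rose and 5.52% fell. Without 72 h replicate 3 the counts were 1 and 4. Dcstamp, the membrane protein required for fusion of osteoclasts and giant cells, had 3.45, 1.12 and 2.74 CPM at 72 h, against 14.2, 11.6, 12.7 and 10.4 CPM at 24 h (log2 -2.25 ± 0.23, SE, adjusted p = 3.18e-09). Its relative Ocstamp had 3.79, 0.769 and 2.48 CPM at 72 h, against 10.9, 12.3, 14.3 and 16.01 CPM at 24 h (log2 -2.50 ± 0.46, adjusted p = 0.000157). Matk, a kinase that restrains Src kinases, had 22.4, 13.1 and 22.4 CPM at 72 h, against 148, 72.6, 77.7 and 84.2 CPM at 24 h (log2 -2.25 ± 0.26, adjusted p = 3.42e-08). These groups did not overlap. The gelatinase Mmp9 fell by log2 -1.40 ± 0.26 (adjusted p = 0.000215) and the osteoclast factor Nfatc1 by -0.45 (adjusted p = 0.0417). The integrin Itgb3, the collagen-degrading cathepsin Ctsk and the surface protein Cd47 rose, by log2 0.62, 0.57 and 0.51 (adjusted p = 0.0172, 0.00465 and 0.000531). Without that library Itgb3 (log2 0.51, adjusted p = 0.123), Ctsk (0.48, adjusted p = 0.0545) and Nfatc1 (-0.49, adjusted p = 0.0748) were not called, nor was Itgb3 without 24 h replicate 1 (0.52, adjusted p = 0.0639). The fall with IL-4 exceeded the change in control for Dcstamp (difference of log2 -1.17 ± 0.38, adjusted p = 0.0310) and Ocstamp (-3.70 ± 0.77, adjusted p = 0.00104).

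Genes of cholesterol synthesis fell with IL-4 while those of control cultures rose. With IL-4, 15 of 23 fell and 0 rose, with a median log2 change of -0.86, where 5.52% of all genes fell. Without both libraries that stood apart 11 fell. In control cultures 15 rose and 0 fell, with a median of 0.75, where 8.24% of all genes rose. The change was smaller with IL-4 than in control for 20 of 23, where 7.50% of all genes had a smaller change. Cyp51, the lanosterol demethylase, had 37.9, 35.9 and 39.1 CPM at 72 h, against 50.1, 80.1, 81.6 and 78.9 CPM at 24 h (log2 -0.98 ± 0.14, SE, adjusted p = 4.17e-06). All 72 h libraries lay below all 24 h libraries. In control, Cyp51 averaged 171 ± 24.1 CPM at 72 h and 68.7 ± 4.15 CPM at 24 h, so that the changes differed by log2 -2.30 ± 0.20 (adjusted p = 2.01e-10). Pmvk, a kinase of the mevalonate pathway, fell by log2 -1.49 ± 0.26 (adjusted p = 8.22e-05) and Dhcr7, which makes the last step to cholesterol, by -0.86 ± 0.15 (adjusted p = 7.67e-05).

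Chaperones of the endoplasmic reticulum also fell with IL-4 and rose in control. The shares of all genes that fell and rose were 5.52% and 6.97% with IL-4, and 9.71% and 8.24% in control. Of 19 genes of the unfolded protein response, 10 fell and 1 rose with IL-4, with a median log2 change of -0.46, and 9 rose and 3 fell in control, with a median of 0.35. The falls numbered 7 without both libraries that stood apart, and 5 without 72 h replicate 3 alone. Calr, the calcium-binding chaperone calreticulin, had 380.4, 368 and 425 CPM at 72 h, against 1564, 734, 865 and 902 CPM at 24 h, with replicate 1 far above the rest at 24 h and no overlap (log2 -1.37 ± 0.22, SE, adjusted p = 2.68e-05). Pdia6, a disulfide isomerase, had 153, 125 and 149 CPM at 72 h, against 237, 230.3, 229 and 220.4 CPM at 24 h (log2 -0.69 ± 0.11, adjusted p = 2.24e-05). Hspa5, the chaperone BiP, named outside the rule, had 768, 553 and 743 CPM at 72 h, against 1083, 974, 966 and 962 CPM at 24 h (log2 -0.53 ± 0.14, adjusted p = 0.00959). Its call was lost without 72 h replicate 3 (log2 -0.39, adjusted p = 0.124). Herpud1, a part of the machinery that removes misfolded proteins, was the member that rose, with 48.2, 56.3 and 52.8 CPM at 72 h, against 29.4, 28.7, 31.00 and 29.8 CPM at 24 h (log2 0.82 ± 0.14, adjusted p = 4.5e-05). The changes with IL-4 and in control differed by log2 -2.30 ± 0.31 for Calr (adjusted p = 1.51e-06) and by -1.50 ± 0.20 for Hspa5 (adjusted p = 1.8e-06).

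The stress element of chaperone genes is written as CCAAT, 9 bases of any kind and CCACG. On either strand it was found in the promoters of 9 of 18 list genes with a promoter in the RefSeq table (Calr, Canx, Creld2, Derl3, Dnajc3, Hsp90b1, Hspa5, Pdia6 and Syvn1), or 50% of them, against 0.119% of all promoters. Of these, Canx, Dnajc3 and Syvn1 did not pass the test between the time points and Derl3 was too low to be tested. The list was written around this stress response, so here too the share can come from its choice and is no test. The promoters of Hspa5 (chr2:34771840-34772139, plus strand) and Calr (chr8:84846882-84847181, minus strand; both GRCm38.p6) are shown as the best known and the most changed, with the match in capitals, 65 bases before the start in Hspa5 and 162 before it, as the reverse complement, in Calr.
Hspa5: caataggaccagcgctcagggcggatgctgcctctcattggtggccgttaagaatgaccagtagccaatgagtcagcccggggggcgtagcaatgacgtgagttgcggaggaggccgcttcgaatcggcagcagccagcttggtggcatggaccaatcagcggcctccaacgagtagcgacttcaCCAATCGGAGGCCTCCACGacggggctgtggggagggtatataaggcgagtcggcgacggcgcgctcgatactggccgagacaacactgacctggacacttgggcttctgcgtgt
Calr: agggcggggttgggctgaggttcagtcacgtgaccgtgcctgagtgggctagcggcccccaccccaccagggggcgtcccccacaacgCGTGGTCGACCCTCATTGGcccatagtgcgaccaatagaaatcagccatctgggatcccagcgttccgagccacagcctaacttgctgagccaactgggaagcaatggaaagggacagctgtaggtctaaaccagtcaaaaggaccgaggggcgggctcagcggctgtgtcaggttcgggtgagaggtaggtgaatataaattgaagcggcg
The sterol element, searched as TCACNCCAC on both strands, was found in 1 of 16 cholesterol genes with a promoter (Hmgcs1), or 5.26% of their 19 promoters, against 1.24% of all.

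**Figure D4:**
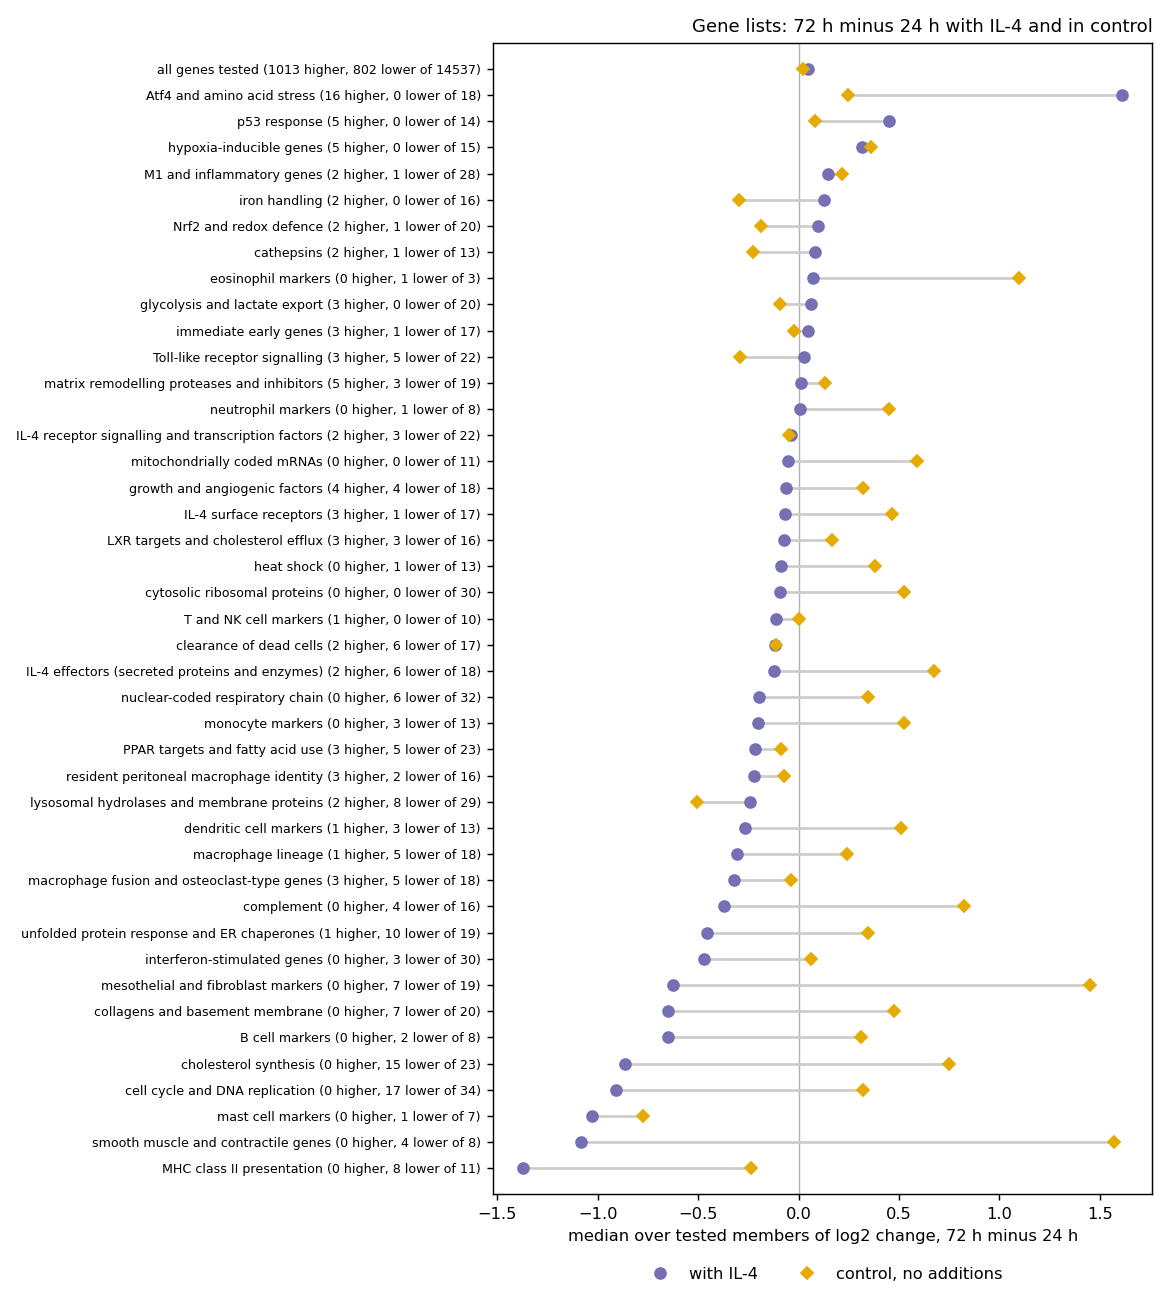
Median log2 change between 24 h and 72 h over the tested members of each gene list, with IL-4 (circles) and in control cultures (diamonds), with the counts of members called with IL-4 in brackets. The Atf4 list lies at 1.61 with IL-4 and 0.25 in control, and the cholesterol list at -0.86 with IL-4 and 0.75 in control.

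Cell cycle genes fell, 17 of 34 against 5.52% of all genes, with 0 that rose and a median log2 change of -0.91. Without both libraries that stood apart 15 fell. Mki67, a marker of cycling cells, had 3.49, 4.47 and 2.99 CPM at 72 h, against 8.71, 10.7, 13.6 and 13.6 CPM at 24 h (log2 -1.74 ± 0.28, SE, adjusted p = 2.18e-05). Top2a, the DNA topoisomerase of dividing cells, had 12.9, 9.02 and 11.8 CPM at 72 h, against 18.5, 23.97, 25.5 and 26.6 CPM at 24 h (log2 -1.11 ± 0.16, adjusted p = 3.22e-06). The mitotic cyclin Ccnb2 had 0.948, 0.489 and 0.637 CPM at 72 h, against 16.3, 3.51, 4.99 and 3.44 CPM at 24 h (log2 -2.95 ± 0.41, adjusted p = 1.41e-06). None of these groups overlapped. In control 6 members rose and 1 fell, where 8.24% of all genes rose and 9.71% fell. The change was smaller with IL-4 than in control for 16, where 7.50% of all genes had a smaller change. The members not called included the replication licensing genes Mcm2, Mcm3, Mcm4, Mcm6 and Mcm7 and the clamp Pcna.

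Markers of mesothelial cells and fibroblasts, which can be carried along from the peritoneum, fell in the IL-4 cultures and rose in control cultures. Of 19 tested, 7 fell and 0 rose with IL-4 (6 without both libraries that stood apart), where 5.52% of all genes fell. In control 11 of the markers rose and 0 fell, where 8.24% of all genes rose. Their summed level was 136 to 303 CPM with IL-4 at 72 h, against 397 to 610 CPM with IL-4 at 24 h, and 832 to 1720 CPM in control at 72 h, against 340 to 411 CPM in control at 24 h. Muc16 was at 0 in both IL-4 groups. Lrrn4, a mesothelial membrane protein, had 4.32, 0.629 and 3.76 CPM at 72 h, against 11.98, 12.9, 11.8 and 15.1 CPM at 24 h (log2 -2.13 ± 0.37, SE, adjusted p = 8.23e-05), and Sparc, a matrix glycoprotein, had 48.4, 25.3 and 39.4 CPM at 72 h, against 149, 85.1, 88.01 and 104 CPM at 24 h (log2 -1.46 ± 0.22, adjusted p = 7.34e-06). The groups were separate in both. The collagens moved the same way, with 7 of 20 matrix genes lower and 0 higher. Col1a1, a chain of type I collagen, had 8.15, 8.11 and 5.92 CPM at 72 h, against 34.9, 28.9, 33.7 and 34.5 CPM at 24 h (log2 -2.14 ± 0.23, adjusted p = 1.32e-08), and its change differed from control by log2 -3.59 ± 0.31 (adjusted p = 2.01e-10). Col6a3, a chain of type VI collagen, fell by log2 -2.73 ± 0.41 (adjusted p = 7.51e-06). Of 8 contractile genes 4 fell with IL-4 and 7 rose in control, and Acta2, smooth muscle actin, had 0.985, 1.26 and 0.892 CPM at 72 h, against 6.54, 3.92, 4.90 and 3.79 CPM at 24 h (log2 -2.06 ± 0.25, adjusted p = 1.48e-07). The part of a changed share of such cells in these results, or in the fall of cell cycle genes, was not tested.

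**Figure D5:**
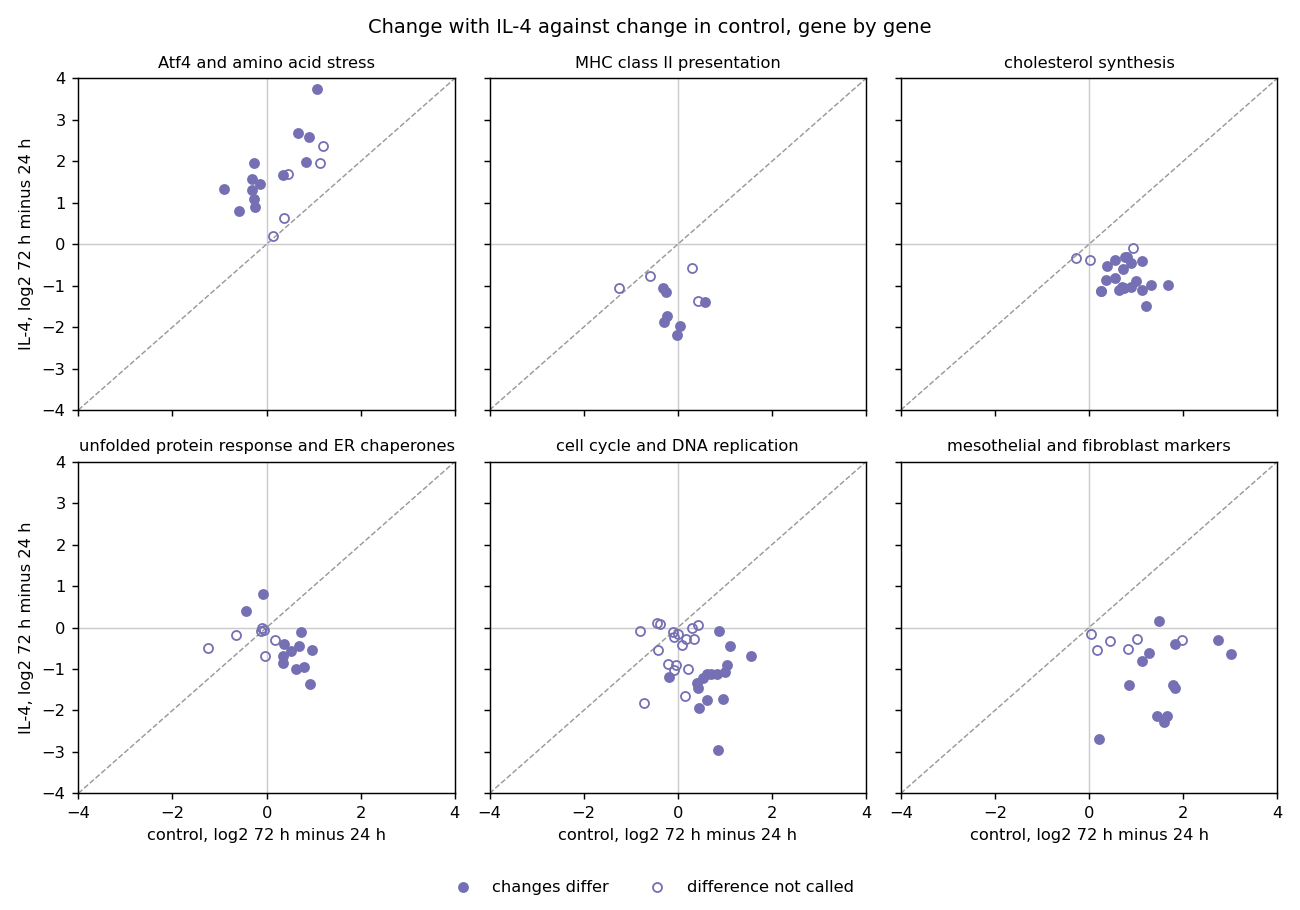
For each tested member of 6 gene lists, the log2 change between 24 h and 72 h with IL-4 (vertical) against that in control (horizontal), with filled points where the changes differ at an adjusted p under 0.05. Points on the dashed diagonal changed alike. In the mesothelial panel 13 of 19 members differ, all below the diagonal, where 7.50% of all genes had a smaller change with IL-4.

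Complement and clearance genes fell in part. Among all genes 6.97% rose and 5.52% fell. Of 16 complement genes 4 fell and 0 rose (2 without both libraries that stood apart), 3 of them the chains of C1q. C1qb had 98.6, 37.7 and 85.9 CPM at 72 h, against 306, 183, 169.6 and 169 CPM at 24 h, with replicate 3 the lowest (log2 -1.46 ± 0.24, SE, adjusted p = 3.75e-05). C1qa had 27.3, 22.9 and 24.7 CPM at 72 h, against 56.6, 52.3, 50.8 and 46.1 CPM at 24 h (log2 -1.03 ± 0.20, adjusted p = 0.000313), and C1qc fell by log2 -0.98 ± 0.21 (adjusted p = 0.00126; log2 -0.56 and adjusted p = 0.0773 without both libraries). The groups did not overlap in any of the 3. In control all 3 rose, C1qb by log2 1.30, C1qa by 0.86 and C1qc by 1.20. Without both libraries C1qb fell by log2 -0.96 (adjusted p = 0.00343). Of 17 genes for clearance of dead cells 2 rose and 6 fell, the C1q chains included (1 and 4 without 72 h replicate 3). Mertk, a receptor for dead cells, fell by log2 -0.85 ± 0.24 (adjusted p = 0.0153), but was not called without 24 h replicate 1 (log2 -0.57, adjusted p = 0.0895) or 72 h replicate 3 (log2 -0.69, adjusted p = 0.115).

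Lipid genes changed in both directions. The counts in this paragraph stand beside 6.97% of all genes that rose and 5.52% that fell with IL-4. In control these shares were 8.24% and 9.71%. Of 16 LXR targets and genes of cholesterol efflux 3 rose and 3 fell. Plin2, which coats lipid droplets, had 2751, 2076 and 2589.7 CPM at 72 h, against 1397, 1267, 1228 and 1352 CPM at 24 h (log2 0.92 ± 0.12, SE, adjusted p = 8.68e-07). Hilpda, an inhibitor of lipolysis, had 81.9, 128 and 87.8 CPM at 72 h, against 78.4, 41.9, 41.7 and 36.4 CPM at 24 h, with replicate 1 close to the 72 h libraries (log2 1.09 ± 0.18, adjusted p = 3.58e-05). G0s2, another inhibitor of the lipase Pnpla2, was among the largest rises, with 13.3, 6.29 and 13.9 CPM at 72 h, against 1.09, 0.560, 0.377 and 0.237 CPM at 24 h (log2 4.60 ± 0.51, adjusted p = 2.26e-08). The groups did not overlap in these 3. Apoe, the lipoprotein of cholesterol export, had 1122, 1248 and 1189.8 CPM at 72 h, against 4187, 1753, 1890.3 and 1889 CPM at 24 h, and fell (log2 -1.03 ± 0.21, adjusted p = 0.000495; -0.66 without 24 h replicate 1, adjusted p = 0.0054). The efflux pump Abca1 rose by log2 0.82 ± 0.22 (adjusted p = 0.00779), but was not called without 72 h replicate 3 (log2 0.50, adjusted p = 0.199). Of 23 PPAR and fatty acid genes 3 rose and 5 fell (3 and 3 without both libraries that stood apart), and the coactivator Ppargc1b fell by log2 -1.47 ± 0.33 (adjusted p = 0.00163). Of 29 lysosomal genes 2 rose and 8 fell with IL-4 (1 and 5 without both libraries), and 0 rose and 17 fell in control. The glucuronidase Gusb had 449, 343 and 454 CPM at 72 h, against 815, 662, 673 and 739 CPM at 24 h (log2 -0.80 ± 0.12, adjusted p = 4.45e-06), and Tfeb, a transcription factor of lysosomal genes, fell by log2 -1.09 ± 0.23 (adjusted p = 0.000855).

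Of 18 growth and angiogenic factors 4 rose and 4 fell (1 and 3 without 72 h replicate 3), where 6.97% of all genes rose and 5.52% fell. Serpinb2, the inhibitor of urokinase, had 200.1, 179.7 and 182 CPM at 72 h, against 30.5, 32.1, 24.4 and 25.8 CPM at 24 h (log2 2.74 ± 0.22, SE, adjusted p = 6.51e-12). It overlaps Serpinb10 on the same strand. The coagulation factors moved apart: F5 had 33.2, 14.4 and 35.4 CPM at 72 h, against 3.27, 3.88, 4.05 and 4.98 CPM at 24 h (log2 2.72 ± 0.29, adjusted p = 1.21e-08), and F10 had 118, 92.3 and 119 CPM at 72 h, against 449, 220.0, 269.8 and 275 CPM at 24 h (log2 -1.45 ± 0.19, adjusted p = 4.32e-07). Neither overlapped. Vegfa, the endothelial growth factor, had 125, 179 and 121 CPM at 72 h, against 35.9, 45.3, 50.04 and 44.8 CPM at 24 h (log2 1.66 ± 0.18, adjusted p = 8.3e-09). Inhba, which makes activin A, rose by log2 2.33 ± 0.56 (adjusted p = 0.00334), but not without 72 h replicate 3 (log2 0.48, adjusted p = 0.628). Csf1, the macrophage growth factor, and Tgfb3 fell by log2 -1.03 and -1.77 (adjusted p = 4.5e-06 and 0.00766). Csf1r, the receptor of Csf1, had 164, 206 and 158 CPM at 72 h, against 298, 334, 389 and 432 CPM at 24 h (log2 -1.05 ± 0.21, adjusted p = 0.000401). Spp1, osteopontin, had 1904, 4395 and 1838 CPM at 72 h, against 1003, 1259, 1083 and 1054 CPM at 24 h, with replicate 3 more than any other library and no overlap (log2 1.30 ± 0.18, adjusted p = 1.63e-06; 0.77 without it, adjusted p = 0.000358).

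Of 15 hypoxia-inducible genes 5 rose and 0 fell with IL-4 (3 and 0 in control). Of 14 genes of the p53 response 5 rose and 0 fell (0 and 1 in control, and 3 and 0 with IL-4 without both libraries that stood apart). Among all genes 6.97% rose and 5.52% fell with IL-4, and 8.24% and 9.71% in control. Ero1l, an oxidase of the endoplasmic reticulum, had 331, 236 and 320.4 CPM at 72 h, against 47.9, 119.8, 116 and 114 CPM at 24 h, with replicate 1 the lowest (log2 1.53 ± 0.19, SE, adjusted p = 1.48e-07). The hormone Stc2 had 2.24, 2.24 and 2.29 CPM at 72 h, against 2.18, 0.224, 0.188 and 0 CPM at 24 h, where replicate 1 came within reach of the 72 h libraries (log2 3.23 ± 0.73, adjusted p = 0.00190). Gadd45a, a growth arrest gene, had 119, 91.4 and 125 CPM at 72 h, against 37.04, 33.8, 25.8 and 30.00 CPM at 24 h (log2 1.85 ± 0.24, adjusted p = 3.13e-07), and Trp53inp1 and Bbc3, both p53 targets, rose by log2 1.16 and 1.03 (adjusted p = 0.000289 and 0.00356). Cdkn1a, the p53 target that inhibits cyclin-dependent kinases, did not pass the test (log2 0.23 ± 0.24, adjusted p = 0.627).

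Of 28 genes of classical (M1) activation, 2 rose and 1 fell, a share near the 6.97% and 5.52% of all genes. Without 72 h replicate 3 the counts were 0 and 2. Nos2, the inducible nitric oxide synthase, had 2.80, 6.36 and 4.90 CPM at 72 h, against 9.80, 7.21, 9.42 and 9.60 CPM at 24 h, lower in all 72 h libraries but not past the test (log2 -0.93 ± 0.50, adjusted p = 0.264). Il1b, interleukin 1 beta, had 1.63, 6.01 and 3.50 CPM at 72 h, against 30.5, 2.05, 6.03 and 3.08 CPM at 24 h (log2 -0.66 ± 0.83, adjusted p = 0.711). Tnf had 6.18, 19.9 and 8.60 CPM at 72 h, against 38.1, 3.62, 6.69 and 6.52 CPM at 24 h (log2 0.40 ± 0.70, adjusted p = 0.811), and Il6 had 2.39, 2.24 and 3.06 CPM at 72 h, against 19.6, 1.64, 2.45 and 1.90 CPM at 24 h (log2 -0.18 ± 1.03, adjusted p = 0.959). In these 3 cytokines 24 h replicate 1 was far the highest, and the groups overlapped. Of 30 interferon-stimulated genes 3 fell and 0 rose (1 fell without 24 h replicate 3 or 4 or without 72 h replicate 2 or 4), among them the nucleic acid sensor Zbp1 (log2 -1.29 ± 0.28, adjusted p = 0.00140). Of 22 genes of Toll-like receptor signalling 3 rose and 5 fell, where 6.97% of all genes rose and 5.52% fell. Without 72 h replicate 3 the counts were 3 and 1, and 3 fell without 24 h replicate 4 or without 72 h replicate 2 or 4. Cd14, the coreceptor for lipopolysaccharide, had 37.2, 71.3 and 38.9 CPM at 72 h, against 31.6, 19.98, 24.4 and 24.4 CPM at 24 h (log2 1.02 ± 0.19, adjusted p = 0.000198; 0.66 without replicate 3, adjusted p = 0.0172). The DNA receptor Tlr9 fell by log2 -1.81 ± 0.54 (adjusted p = 0.0203), but was not called without replicate 3 (log2 -1.77, adjusted p = 0.0703).

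The largest rises among genes of at least 1 CPM with separate groups took in the transporters Abcb1a and Aqp9. Abcb1a, the multidrug exporter P-glycoprotein, had 83.6, 188 and 83.95 CPM at 72 h, against 7.63, 12.02, 11.2 and 9.49 CPM at 24 h (log2 3.47 ± 0.21, SE, adjusted p = 1.27e-14). Aqp9, a channel for water and glycerol, had 36.8, 68.8 and 35.2 CPM at 72 h, against 0, 5.23, 3.86 and 5.34 CPM at 24 h (log2 3.36 ± 0.33, adjusted p = 1.06e-09). Replicate 3 had the most of both at 72 h, yet replicates 2 and 4 also lay far above every 24 h library. Both changed more with IL-4 than in control, by log2 3.33 ± 0.32 (adjusted p = 1.5e-09) and 4.37 ± 0.68 (adjusted p = 1.89e-05). The others were 4930438A08Rik (log2 4.41 ± 0.56, adjusted p = 4.32e-07), Hid1, a protein of dense core vesicle formation (log2 3.37 ± 0.48, adjusted p = 2.84e-06), and Tmeff1, a membrane protein (log2 3.21 ± 0.53, adjusted p = 3.69e-05), beside Cth, G0s2, Slc7a3, Slc6a9 and Stc2. Tmeff1 had 1.97, 16.6 and 2.61 CPM at 72 h, against 0, 0.859, 0.377 and 0.949 CPM at 24 h, with most in replicate 3, without which its rise was log2 1.62 (adjusted p = 0.0076).

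The largest falls were led by Apol7c, of the apolipoprotein L family, which had 0 counts in all 72 h libraries and 6.54, 1.57, 1.41 and 2.02 CPM at 24 h, at least 54.2-fold lower at 72 h against a floor of 3 counts over the group (counting error only), or at least 31.3-fold without 24 h replicate 1, which had 6 counts. Cd52, a small surface glycoprotein of leukocytes, had 122, 137 and 129 CPM at 72 h, against 1646, 659, 672 and 676 CPM at 24 h (log2 -2.81 ± 0.27, SE, adjusted p = 9.06e-10). Its exons overlap those of Crybg2 on the other strand. Mgp, the matrix Gla protein that inhibits calcification, had 4.66, 0.909 and 3.95 CPM at 72 h, against 31.6, 25.5, 25.1 and 24.3 CPM at 24 h (log2 -3.02 ± 0.40, adjusted p = 7.55e-07). All 72 h libraries were below all 24 h libraries in these genes. Gjb5, a connexin, and Aqp5, a water channel, both fell by log2 -3.39 (adjusted p = 7.94e-05 and 0.000475), and Gm14226 by -2.69 (adjusted p = 0.00159). Ccl17, Ccl22, Ccnb2 and Col6a3 completed the list.

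The question whether a change with time was particular to IL-4 was put to the difference of the changes. The change was larger with IL-4 than in control for 1230 genes (8.46%) and smaller for 1090 (7.50%), or for 848 and 1364 with RLE size factors, which shift the median difference of all genes by -0.12 on the log2 scale. Of the 1013 genes that rose with IL-4, 529 (52.2%) also changed more than in control, and of the 802 that fell, 417 (52.0%) changed less. Among genes called with IL-4 and in control, 93 rose in both, 113 fell in both, 102 rose with IL-4 and fell in control, and 117 fell with IL-4 and rose in control. Arg1 rose in control (log2 3.24, adjusted p = 3.59e-08): it averaged 2011 ± 385 and 1500.4 ± 94.98 CPM with IL-4 at 72 h and 24 h, and 201 ± 101 and 21.2 ± 11.2 CPM in control at 72 h and 24 h (SD), so that the changes differed by log2 -2.81 ± 0.47 (adjusted p = 6.19e-05). Cish likewise rose in control, by log2 2.39 (adjusted p = 0.0173), and the changes differed by -2.95 ± 0.76 (adjusted p = 0.00734).

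Among the largest differences were genes at or near 0 in control. Pgm5, a relative of phosphoglucomutase found at cell contacts, had 3.45, 0.839 and 3.89 CPM with IL-4 at 72 h, against 1.09, 1.05, 1.41 and 1.42 CPM at 24 h, and 0 in all control libraries at 72 h, against a mean of 0.622 ± 0.339 CPM in control at 24 h. Adipoq, adiponectin, had 4.85, 0.419 and 4.39 CPM with IL-4 at 72 h, against 2.18, 8.66, 5.28 and 7.23 CPM at 24 h, and means of 0.724 ± 0.766 and 0.0617 ± 0.123 CPM in control at 72 h and 24 h. No fold is given for the pair, since their control counts were at the floor. Sdpr, a caveola protein now called Cavin2, averaged 0.715 ± 0.205 and 1.67 ± 1.14 CPM with IL-4 at 72 h and 24 h, and 43.1 ± 20.1 and 4.31 ± 1.12 CPM in control at 72 h and 24 h, a difference of the changes of log2 -4.85 ± 0.53 (adjusted p = 2.62e-08). Orm1, the acute-phase orosomucoid, had 0.796, 21.6 and 0.955 CPM with IL-4 at 72 h, against 3.27, 0.448, 0.660 and 0.474 CPM at 24 h, and its difference (log2 4.51 ± 1.51, adjusted p = 0.0372) and its rise with IL-4 (log2 3.66 ± 0.71, adjusted p = 0.000363) rest on 72 h replicate 3, without which the rise is log2 0.57 (adjusted p = 0.496). Nfrkb, a chromatin remodelling subunit, had 88.5, 90.1 and 114 CPM with IL-4 at 72 h, against 1322, 119.6, 173 and 121 CPM at 24 h, where replicate 1 stood alone (log2 -2.11 ± 0.84, adjusted p = 0.0957), and its difference from control was log2 -5.39 ± 1.18 (adjusted p = 0.00164). In the control libraries numbered 3, 18S rRNA and Lars2 took 7.38% and 10.8% of counts at 24 h and 72 h, and without this pair 959 genes changed more and 931 less with IL-4.

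Markers of other cells that the isolate could hold are given beside 6.97% of all genes that rose and 5.52% that fell. Of 8 neutrophil markers tested 1 fell, with Camp and Stfa2 at 0 in both groups. Their summed level was 37.0, 129 and 34.7 CPM at 72 h, against 113, 86.2, 80.0 and 84.0 CPM at 24 h, with replicate 3 the highest of all, and 2 fell without it. Of 3 eosinophil markers tested 1 fell, with 3.49 to 30.2 CPM at 72 h and 19.3 to 43.6 CPM at 24 h, and the granule genes Epx, Prg2 and Prg3 were at 0 in both groups. Of 10 T and NK cell markers 1 rose, Lck, a T cell kinase, with 2.27, 5.73 and 2.29 CPM at 72 h, against 1.09, 1.23, 1.04 and 0.711 CPM at 24 h (log2 1.69 ± 0.31, adjusted p = 0.000178; 1.13 without 72 h replicate 3, adjusted p = 0.0118). Of 13 monocyte markers 3 fell, the chemokine receptor Ccr2, S100a6 and F13a1, of which S100a6 was not called without 72 h replicate 3 (log2 -0.82, adjusted p = 0.0525). Of 7 mast cell markers 1 fell, Hdc, which makes histamine (log2 -1.55 ± 0.46, adjusted p = 0.0200; -1.16 without 72 h replicate 3, adjusted p = 0.129). In this list 3 fell without 72 h replicate 4 and 0 without 24 h replicate 4. Of 16 genes of resident peritoneal macrophages 3 rose and 2 fell, Serpinb2, F5 and F10 among them.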

How the data were processed

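The authors deposited raw counts of reads per gene in 1 table of 44 libraries, made per the labels' protocols from polyadenylated RNA (Diagenode CATS kit, single-end 50 bp reads). The submitters' processing notes name mm10, TopHat2 2.1.1, Bowtie2, HTSeq, cutadapt, edgeR and DESeq, and the deposited trimming script removed 3 leading bases and kept reads of at least 18. The release of the annotation and the strand setting were not given in the sources used here. Levels are therefore uncertain for genes whose exons overlap another gene in GENCODE M21, here Abcb1a, Cd52, Ciita, Cish, Csf1r, Cyp51, Ddit3, F5, Gadd45a, H2-DMa, Il1b, Lck, Pdia6, Ptgs1, Ptpn6, Serpinb2, Slc6a9, Spp1, Stat6, Tgm2 and Top2a, and for the paralogs Chil3 and Chil4.

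Genes passing filterByExpr (minimum count 10), 14537 in all, were fitted with TMM scaling in 1 edgeR 4.0.16 quasi-likelihood model (R 4.3.3) over all libraries, with a coefficient for each of 12 groups (common dispersion, as a coefficient of variation, 0.219, with 32 residual df). The contrasts were IL-4 72 h minus 24 h, the same in control, and their difference, two-sided, with calls at p under 0.05 after Benjamini-Hochberg adjustment. Log2 changes (± SE) carry a prior count of 0.125, and CPM are TMM-scaled. Floors cover counting error only. Ambiguous reads (5.39%) stayed out. The code was tested on simulated counts.

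Named genes were the 10 largest rises and falls among called genes with separate groups and 1 CPM or more on average, the 5 largest differences from control each way, up to 4 of smallest p in each of 42 lists, and a set of activation markers, of which the text takes a part. Some members of the lists are not reported by name. Members and lists were chosen with earlier results of these data known. Rnase2a, Mgl2, Ciita, Atf4, Ddit3, Hspa5, Col6a5, Mmp8, H2-M2, Olr1 and list members given only by a log2 change lie outside this rule and were chosen after their values were seen. The alternatives were RLE size factors, no filter, the compared groups alone, a replicate block, DESeq2 1.42.0 (Wald test) and leaving out each library.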

Additional observations from a re-analysis of the deposited data

Results flagged for a closer look

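Among 106 genes examined one by one, 32 (30.2%) had an IL-4 24 h library set apart from the other 3 by Dixon's gap test, and in 31 of them it was replicate 1. For a single group of normal values chance gives about 1 in 20. The genes share the same libraries and part of them were chosen after their values were seen, so the share is not tested against that rate. This library had 908458 gene counts, against 7669094 to 25094449 in the other 3, and the part of depth in its values was not tested.

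Replicate 1 was high for antigen presentation and complement genes: H2-Aa stood at 399 CPM (the others at 297 to 310.0), H2-Eb1 at 210.2 CPM (124 to 129), H2-DMa at 79.5 CPM (44.1 to 47.8), H2-M2 at 121 CPM (20.9 to 26.3) and C1qb at 306 CPM (169 to 183). It was also high for inflammatory genes, with Il1b at 30.5 CPM (2.05 to 6.03), Il6 at 19.6 CPM (1.64 to 2.45), Tnf at 38.1 CPM (3.62 to 6.69), Cxcl3 at 13.1 CPM (1.31 to 2.92), Zbp1 at 41.4 CPM (14.6 to 19.2) and Orm1 at 3.27 CPM (0.448 to 0.660). Ccl24, counted above as a marker of alternative activation, was high too, at 24.0 CPM (7.47 to 8.21). Stress genes were high as well, with Atf4 at 549 CPM (350.2 to 367), Ddit3 at 159 CPM (48.6 to 63.1), Hspa5 at 1083 CPM (962 to 974), Hilpda at 78.4 CPM (36.4 to 41.9) and Stc2 at 2.18 CPM (0 to 0.224). The other high values were Batf3 at 89.3 CPM (30.7 to 34.7), Ptgs1 at 136 CPM (106 to 110.2), Matk at 148 CPM (72.6 to 84.2), Ccnb2 at 16.3 CPM (3.44 to 4.99), Apoe at 4187 CPM (1753 to 1890.3), Cd52 at 1646 CPM (659 to 676), Mgp at 31.6 CPM (24.3 to 25.5), Apol7c at 6.54 CPM (1.41 to 2.02) and Nfrkb at 1322 CPM (119.6 to 173). At the depth of this library Apol7c rests on 6 counts, and Stc2 and Orm1 on fewer, so these values are near the floor.

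Replicate 1 was low for Chil4 at 8.71 CPM (13.7 to 14.2), Irf4 at 30.5 CPM (51.5 to 54.7), Mrc1 at 317 CPM (592 to 606), Ero1l at 47.9 CPM (114 to 119.8) and Cyp51 at 50.1 CPM (78.9 to 81.6). Nos2 was low in replicate 2, at 7.21 CPM (9.42 to 9.80 in the other 3).

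The change between 24 h and 72 h, on the signed log2 scale, was larger with IL-4 than in control for 1230 genes and smaller for 1090 by edgeR's quasi-likelihood test of the difference. It was larger, on the log2 scale, by 2.22 for Asns, 2.00 for Chac1, 1.98 for Tgm2, 2.84 for Serpinb2, 3.33 for Abcb1a, 1.30 for Vegfa, 4.37 for Aqp9, 4.70 for 4930438A08Rik and 4.51 for Orm1. The fitted differences of Pgm5 (6.78) and Gm26623 (4.44) come from control counts at or near 0, depend on the prior count and are no bounds.

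The difference was -2.81 for Arg1, -1.70 for Irf4, -2.33 for Batf3 and -2.95 for Cish among IL-4 genes, and -1.49 for H2-Aa and -2.17 for Ciita among class II genes. It was -2.30 for Calr, -1.50 for Hspa5 and -2.30 for Cyp51 among chaperone and sterol genes. It was -3.80 for Ccnb2, -3.59 for Col1a1, -2.76 for C1qb, -1.17 for Dcstamp, -3.70 for Ocstamp, -4.76 for Mgp, -4.85 for Sdpr and -5.39 for Nfrkb. The fitted differences of Apol7c (-8.53) and Adipoq (-4.74) again come from groups at or near 0 counts and are no bounds.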

How the results depend on the processing

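Counts of genes higher and lower at 72 h than at 24 h with IL-4 (1013 and 802) ran from 699 to 993 and from 506 to 803 with a library left out, both lowest without 72 h replicate 3, and 534 fell without 72 h replicate 4. Counts larger and smaller than in control (1230 and 1090) ran from 932 to 1263 and from 754 to 1155. Fitting the compared groups alone left 283 and 265 with IL-4, and 563 genes with a larger and 758 with a smaller change than in control, from fewer samples. Leaving out 24 h replicate 1 and 72 h replicate 3 together, added after seeing the data, left 482 higher and 555 lower. RLE size factors gave 919 and 970, no filter on low counts 758 and 660, and DESeq2 1105 and 1200. For the difference from control RLE gave 848 larger and 1364 smaller, and DESeq2 1033 and 1572. Which direction held more genes thus depended on the processing. Same-numbered IL-4 libraries deviated together with r = 0.350, 0.0354 and 0.111, each 72 h library best with its own number, and control libraries with r = 0.103, 0.417 and 0.239. The labels name no shared batch and the IL-4 pairs did not all exceed 0.1, a limit chosen here, so the number was not taken to pair them. In libraries numbered 3 at 72 h, 18S rRNA and Lars2 took 10.8% of counts in control, 5.37% with lipopolysaccharide, 10.9% with cell extract and 0.449% with IL-4. At 24 h the shares were 7.38%, 6.43%, 0.480% and 0.786%. Whether the number marks shared handling was not tested, and calls that a block changes depend on this choice. With the number as a block, 1069 rose and 878 fell with IL-4. Chil3 (adjusted p = 0.0238), Chil4 (0.0304) and Ddit3 (0.0119) passed the threshold, and Olr1 (0.0695) no longer did. In control, fitted so after seeing the data, 1213 rose and 1339 fell, against 1198 and 1412 without the block.

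Of 103 named genes, 81 were called. With the groups alone, where sets of samples were smaller, 20 of these lost the call and 2 other genes, Chil3 and Chil4, gained one. Without the filter Chil3, Chil4, Socs1, Mgl2, Ddit3, Nos2 and Nfrkb gained a call, and Msr1 and Hspa5 lost theirs. Nfrkb was also called with DESeq2 (Wald test, adjusted p = 0.0396). The log2 changes that turned sign were of genes not called, or of Cxcl3 and Olr1 without 72 h replicate 3, and the cause was not tested. With 1 library left out they ran from -0.78 to 0.26 for Retnla, -0.84 to 0.33 for the ribonuclease Rnase2a, -0.45 to 0.21 for Pdcd1lg2, -0.61 to 0.37 for Il6, -0.23 to 1.06 for Tnf, -0.36 to 3.81 for Cxcl3, -2.54 to 0.53 for Mmp8 and -0.90 to 2.02 for Olr1. Without both libraries they were 0.44 for Retnla, 0.45 for Rnase2a, -0.023 for Stat6 (0.22 without 24 h replicate 3), 0.17 for Pdcd1lg2, 0.42 for Il6, -0.08 for Cxcl3, -2.56 for Mmp8 and -0.99 for Olr1. Il6 was 0.019 under the block, Tnf -0.26 with DESeq2, and Mmp8 -0.035 with RLE, -0.26 under the block and -0.053 with DESeq2. By edgeR's test Olr1 was called higher with all libraries (adjusted p = 0.0267). It was called lower without 72 h replicate 3 (adjusted p = 0.0281) and without both libraries (adjusted p = 0.0185). The depth of 24 h replicate 1 limits what its low genes can show.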

Other observations

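Some gene groups lie outside the comparisons described so far. Their counts, here and in the next paragraph, stand beside 6.97% of all genes that rose and 5.52% that fell. Of 16 iron genes 2 rose and 0 fell with IL-4 between 24 h and 72 h (edgeR, adjusted p under 0.05): Lcn2, lipocalin 2, which binds the iron carriers of bacteria, by log2 1.85 ± 0.55 (SE, adjusted p = 0.0195), and Cp, the ferroxidase ceruloplasmin, by 1.41 ± 0.22 (adjusted p = 1.3e-05). Lcn2 had 1.29, 11.9 and 1.72 CPM at 72 h, against 6.54, 1.12, 1.51 and 0.711 CPM at 24 h, with most in 72 h replicate 3 and overlap of the groups. Without that library Lcn2 was not called (log2 0.17, adjusted p = 0.899), and 1 iron gene rose and 1 fell. Of 20 Nrf2 and redox genes 2 rose and 1 fell (0 to 3 fell with 1 library left out), with Gsta3, a glutathione transferase, at 1.33, 5.45 and 1.97 CPM at 72 h, against 3.27, 0.261, 0.188 and 0.356 CPM at 24 h (log2 2.95 ± 0.56, adjusted p = 0.000268). Heme oxygenase, Hmox1, on both lists, did not pass the test (log2 -0.34 ± 0.18, adjusted p = 0.257).

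Of 20 glycolysis genes 3 rose and 0 fell (1 rose without any 1 of 24 h replicates 2, 3 and 4 or without 72 h replicate 3), with the glucose transporter Slc2a1 at log2 0.84 ± 0.14 (adjusted p = 5.93e-05; 0.51 without 72 h replicate 3, adjusted p = 0.00885). Of 32 nuclear genes of the respiratory chain 6 fell and 0 rose, but 2 fell without any 1 of the 72 h libraries, 3 without 24 h replicate 1 and 1 without 24 h replicate 1 and 72 h replicate 3 together. Of 17 immediate early genes 3 rose, the phosphatase Dusp1 (log2 1.48 ± 0.18, adjusted p = 1.48e-07), Atf3 (0.76 ± 0.16, adjusted p = 0.00105) and Jun (0.67 ± 0.12, adjusted p = 0.000131), and 1 fell, the mRNA decay factor Zfp36 (-0.57 ± 0.16, adjusted p = 0.0153). Of 13 cathepsins 2 rose, Ctsk and Ctsl, and 1 fell, Ctsh (0 and 0 without both libraries). Of 13 heat shock genes 1 fell.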
